A study of Saccharomyces cerevisiae with 35 samples.

Results

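The 35 nuclear genes examined here encode subunits of the mitochondrial respiratory chain and of the ATP synthase in budding yeast, Saccharomyces cerevisiae. They were taken by name from the 5843 features counted in the series: 9 subunits of cytochrome c oxidase (complex IV), 9 of the cytochrome bc1 complex (complex III), the 2 cytochromes c, 12 subunits of the ATP synthase (complex V), its inhibitor INH1, and the NADH dehydrogenases NDE1 and NDI1. The rule lists genes by name, but the set was proposed with earlier results of these data known. All 35 gene IDs carried the expected symbol in the RefSeq gene table, and all 35 passed the filter on low counts in the single-cell data. The strains were of the FY4/5 background and grew in YPD, a rich glucose medium, at 30 °C. The groups were wild-type (WT) cells and fpr1 deletion cells, pooled in the same flask, each exposed to 200 ng/mL rapamycin for 6 successive intervals of 10 min (0 to 60 min) and each compared with 2 untreated intervals (-20 to 0 min). This was done in 2 cultures, giving 16 single-cell libraries. A separate bulk experiment followed 3 WT cultures at 11 times, before the drug and up to 120 min after it. The untreated intervals precede the drug in the same flask, and the fpr1 cells of that flask were sampled in every interval. No culture without drug was sampled over the later intervals.

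Rapamycin acts on yeast by binding the protein encoded by FPR1, and the pair inhibits TORC1, the kinase complex that couples growth to nutrients. The respiratory chain passes electrons from NADH dehydrogenases and succinate dehydrogenase through the bc1 complex and cytochrome c to cytochrome c oxidase, which reduces oxygen, and the proton gradient that results drives the ATP synthase. Budding yeast has no proton-pumping complex I: NDI1 oxidises NADH on the matrix side of the inner membrane, and NDE1 and NDE2 oxidise it on the outer side. On glucose most of these genes are repressed, and the Hap2/Hap3/Hap4/Hap5 activator, which binds CCAAT, is known to turn many of them on when glucose runs out. Subunit V of cytochrome oxidase and cytochrome c each come in oxygen-regulated isoforms: COX5A and CYC1 are the aerobic forms, and COX5B and CYC7 the forms favoured at low oxygen.

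The single-cell table held 173347 cells, 162529 WT and 10818 fpr1. WT cells of a library summed to between 3993298 and 69114350 unique molecular identifiers (UMIs, counts of captured transcripts), and fpr1 cells to between 1501368 and 5191196. The thinnest WT sample was culture 1 at 50 to 60 min, with 1693 cells. FPR1 itself, deleted in the fpr1 strains, stood at 1.03% to 7.91% of its WT level in the fpr1 sums. Of 169649 distinct cell barcodes, 3646 occurred in 2 or more libraries, and none more than once in the same library.

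The members lie on 14 chromosomes, and none overlaps another annotated gene. Of the 35, 3 have an intron (COX5B, QCR9 and QCR10), as do 318 of the 6002 nuclear protein-coding genes. CCAAT, searched on both strands from 250 bases before to 50 bases after the first base of the start codon, was present in 29 of 35 members (82.9%), and in 43.3% of the 6001 nuclear genes with a full window. ATTGTT, the core bound by the repressor Rox1, was present in 17 members (48.6%), against 35.2% of all windows. AGGGG, the stress response element, was present in 16 members (45.7%), against 21.6%. The Hap1 motif was found in 1 member, QCR6 (2.86%), against 0.133% of all windows. In 1 member window matches to different motifs overlapped. The stretches from 250 to 100 bases before the start codon are printed for the aerobic and the low-oxygen form of cytochrome oxidase subunit V and for 2 bc1 subunits, because these pairs moved in opposite directions late in the treatment. They are read on the gene's strand from RefSeq's copy of assembly R64, and capitals mark matches to the motifs above.
COX5A, chrXIV:531475-531625, plus strand: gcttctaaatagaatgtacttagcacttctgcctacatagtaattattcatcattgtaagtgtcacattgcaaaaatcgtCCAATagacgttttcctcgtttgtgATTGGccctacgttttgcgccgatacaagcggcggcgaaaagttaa
COX5B, chrIX:154972-155122, plus strand: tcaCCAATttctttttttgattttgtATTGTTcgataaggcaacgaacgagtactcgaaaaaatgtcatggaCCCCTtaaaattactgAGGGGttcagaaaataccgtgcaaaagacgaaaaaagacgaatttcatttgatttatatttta
QCR8, chrX:106184-106334, plus strand: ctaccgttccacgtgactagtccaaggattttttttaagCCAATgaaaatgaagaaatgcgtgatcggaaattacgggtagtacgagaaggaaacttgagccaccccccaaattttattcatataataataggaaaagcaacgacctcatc
QCR9, chrVII:859576-859726, minus strand: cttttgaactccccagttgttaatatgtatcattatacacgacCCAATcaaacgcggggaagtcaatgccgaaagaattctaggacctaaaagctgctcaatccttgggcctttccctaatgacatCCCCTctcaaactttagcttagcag
In these stretches COX5A held CCAAT 2 times and no other motif. COX5B held CCAAT and ATTGTT 1 time each and AGGGG 2 times. QCR8 held 1 CCAAT, and QCR9 held 1 CCAAT and 1 AGGGG. In the full window, 13 of the 15 members higher at 50 to 60 min in WT had CCAAT. So did 9 of the 10 lower members and 7 of the 10 not called. AGGGG was present in 8 of the higher, 2 of the lower and 6 of the members not called. ATTGTT was present in 6, 8 and 3 of them, in the same order. The full windows of COX5A, QCR8 and QCR9 each held 1 ATTGTT, outside the printed stretches. These matches describe the letters in the windows and were not tested.

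Transcripts of the 35 genes took up a larger share of the WT transcriptome after rapamycin. Before the drug they made up 0.410% of the summed UMIs in culture 1 and 0.392% in culture 2 at -20 to -10 min. At 10 to 20 min the shares were 0.898% and 0.901%. At 50 to 60 min they were 0.769% in culture 1 and 0.994% in culture 2, so the cultures parted late, culture 1 falling back and culture 2 staying high. In fpr1 cells of the same libraries the share was 0.453% and 0.455% at 50 to 60 min, against 0.365% and 0.372% at -20 to -10 min. Single cells moved with the sums. The 10th percentile of WT cells at 10 to 20 min was 0.551% in culture 1 and 0.565% in culture 2, close to the 90th percentile at -20 to -10 min, 0.609% and 0.559%. A share of all UMIs depends on every other gene, so the tests that follow use TMM scaling, which sets most genes to no change. Levels are given as CPM, the library-normalised UMI count, on TMM-scaled library sizes.

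**Figure D1:**
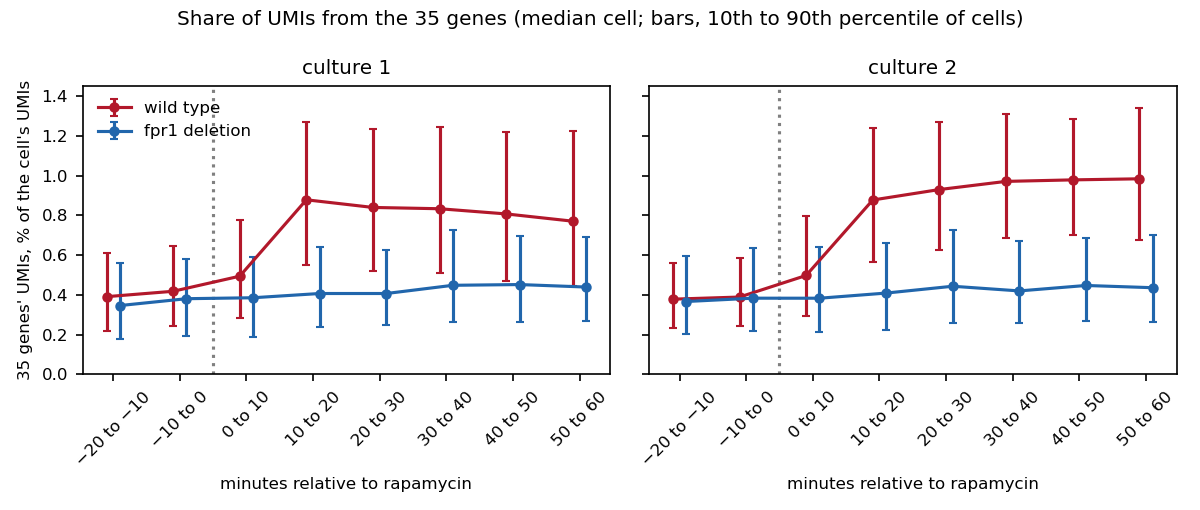
Share of each cell's UMIs from the 35 genes, in percent, by sampling interval in min relative to rapamycin (dotted line), for WT and fpr1 deletion cells of culture 1 (left) and culture 2 (right). Points are the median cell and bars run from the 10th to the 90th percentile of cells. WT medians reach 0.878% and 0.877% at 10 to 20 min, while fpr1 medians stay at or below 0.452% in every interval.

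In WT the response began in the first interval and was nearly complete across the set in the second. At 0 to 10 min, 11 of 35 members were higher than untreated and none lower, with 10.2% of all 5549 tested genes called higher and 9.5% lower (edgeR quasi-likelihood test, Benjamini-Hochberg adjusted p under 0.05). The count fell to 6 with the culture 2 library of 0 to 10 min left out, and to 6 against the last untreated interval alone. Between the 2 untreated intervals in WT the median log2 change of the members was 0.097, with none called. The 11 were CYC7, COX5B, NDI1, RIP1 (the Rieske iron-sulfur protein of bc1), CYT1 (cytochrome c1), QCR10, COX6, QCR7, COX5A, QCR2 and QCR8. The largest was CYC7 (YEL039C), 30.8 and 36.6 CPM in the cultures at 0 to 10 min against 3.54 to 5.26 CPM in the 4 untreated samples, a log2 change of 2.97 (SE 0.23, adjusted p = 1.27e-08).

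At 10 to 20 min, 32 of 35 members were higher and 1, NDE1, was lower, where 32.2% of all genes were called higher and 28.5% lower. The exceptions were ATP4 and ATP18, which were not called, although both were with culture as a block. All 9 complex IV subunits, all 9 complex III subunits and both cytochromes c rose, and 10 of the 12 ATP synthase subunits did. The median log2 change was 0.84 over complex IV, 1.08 over complex III and 0.54 over the ATP synthase, beside 0.04 over all genes. For 26 of the 35 genes this interval held the highest value of the series. Leaving out single libraries left 29 to 34 members called. With the culture 1 library of that interval left out, ATP1, ATP14, ATP15 and COX7 lost the call, and with the culture 2 library, ATP1, ATP2, ATP3 and ATP5 did.

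After this common rise the members parted step by step. The counts were 20 higher and 2 lower at 20 to 30 min, where 37.7% of all genes were higher and 32.4% lower. They were 17 and 5 at 30 to 40 min (40.9% and 34.0% of all genes) and 15 and 8 at 40 to 50 min (41.7% and 35.1%). At 50 to 60 min, 15 were higher and 10 lower than untreated, beside 41.9% of all genes called higher and 36.0% lower, so neither share stands far from that of the genome. Of the 32 genes that had risen at 10 to 20 min, 15 were still higher, 9 were now lower than before the drug and 8 were not called. The direction of the lower calls depends on the scaling. With plain library totals in place of TMM, the median of all genes shifted to 0.94 on the log2 scale, from which 26 members were called higher and none lower. The falls reported here are thus falls relative to most other genes, and on library totals COX5A, QCR8, CYC1, ATP2, ATP3, ATP16 and ATP20 had values above 0 and ATP5, ATP7 and NDE1 were not called. Leaving out the culture 1 library of 50 to 60 min ended the calls of ATP15, ATP16, ATP20, INH1 and QCR6, and leaving out the culture 2 library ended those of ATP15, ATP17, COX13, QCR6, QCR10 and RIP1.

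**Figure D2:**
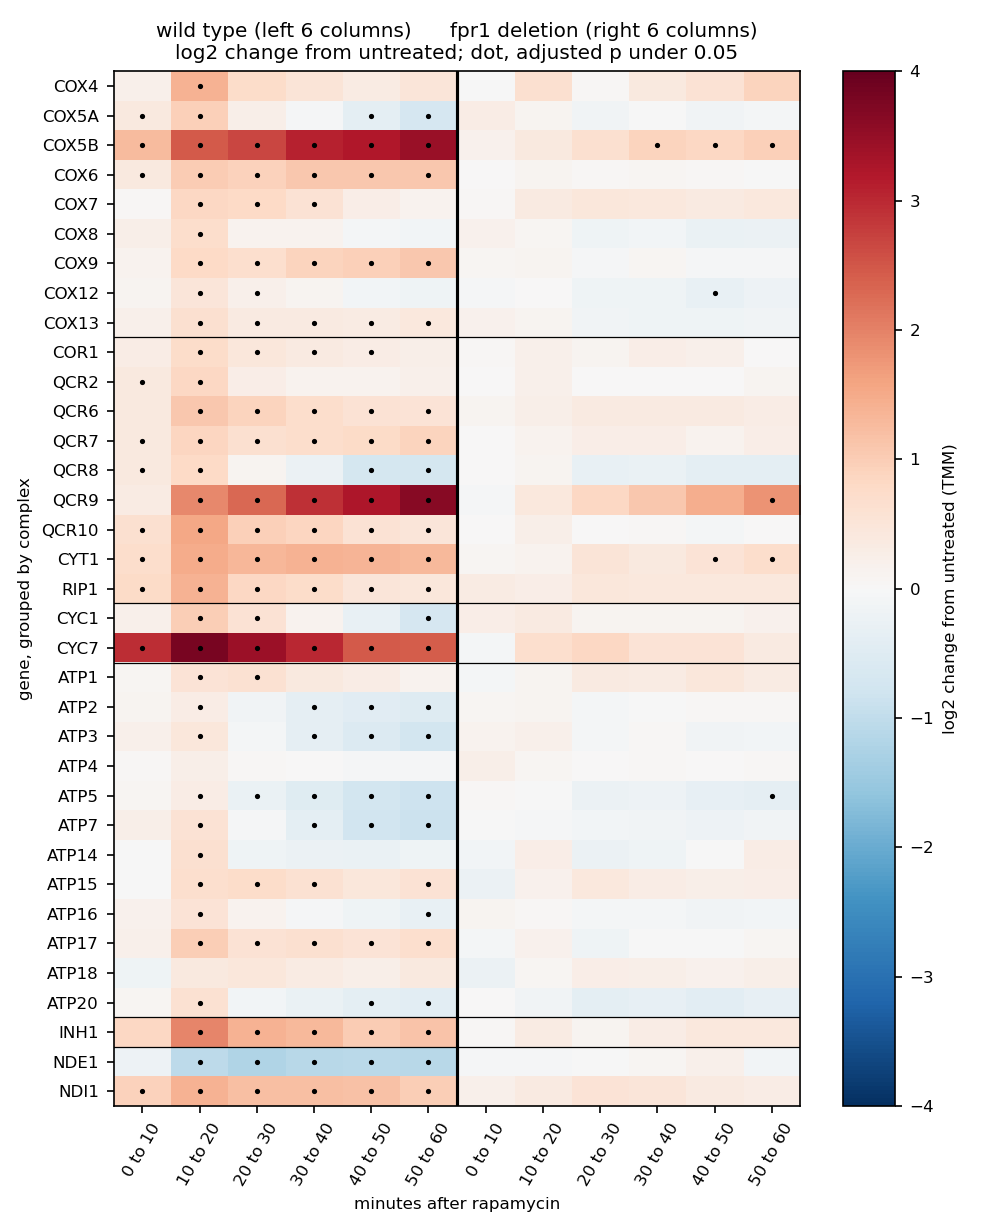
Log2 change from untreated of the 35 genes (rows, grouped by complex) at each interval after rapamycin, in WT (left 6 columns) and fpr1 deletion cells (right 6 columns). Dots mark adjusted p under 0.05. The second WT column is red in nearly every row, the last WT columns hold red and blue rows, and few fpr1 tiles are marked.

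The intervals from 40 to 60 min were also compared directly with those from 10 to 30 min in WT, gene by gene. Differences between members were not tested. Of the 35 members, 19 were lower late and 3 were higher (QCR9, COX5B and COX9), beside 28.6% of all genes lower and 34.7% higher. The median log2 difference was -0.46 over the members and 0.07 over all genes. On library totals 8 members were lower and 6 higher. QCR9 differed by 1.34 (SE 0.31, adjusted p = 0.00105) and COX5B by 0.79 (SE 0.15, adjusted p = 0.000136). CYC1 fell by 1.25, CYC7 by 1.18, COX5A and QCR8 by 1.14 each, and ATP7 by 1.08 on the log2 scale. The call of COX9 (0.27) ended when any of 6 libraries was left out, among them that of 50 to 60 min in culture 2.

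Complex IV, cytochrome c oxidase, held 4 of 9 members above and 1 below their untreated level at 50 to 60 min in WT, beside 41.9% of all genes higher and 36.0% lower. COX5B (YIL111W) was higher than untreated in every interval. It had 30.6 and 40.1 CPM in culture 1 and 28.7 and 33.9 CPM in culture 2 before the drug, 187 and 172 CPM at 10 to 20 min, and 379 and 348 CPM at 50 to 60 min. The samples at 50 to 60 min did not overlap the untreated ones, and the log2 change was 3.46 (SE 0.18, adjusted p = 1.15e-13). Its aerobic counterpart COX5A (YNL052W) had 111 to 124 CPM in the 4 untreated samples, 223 and 239 CPM at 10 to 20 min, and 63.0 and 84.7 CPM at 50 to 60 min. It was first above and then below every untreated sample, with log2 changes of 0.96 (SE 0.12) at 10 to 20 min and -0.68 (SE 0.12, adjusted p = 3.79e-05) at 50 to 60 min.

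COX6 was higher from the first interval onward and COX9 from 10 min onward, both small subunits of the same complex. COX9 had 529 and 592 CPM at 50 to 60 min against 248 to 272 CPM untreated, a log2 change of 1.09 (SE 0.12, adjusted p = 1.62e-08). COX6 changed by 1.08 (SE 0.13) and COX13 by 0.43 (SE 0.11). The other 4 subunits, COX4, COX7, COX8 and COX12, were higher at 10 to 20 min, by 0.49 to 1.40 on the log2 scale, and were not called at 50 to 60 min. COX4 was the noisiest of them, between 22.4 and 41.6 CPM in the untreated samples.

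Complex III, the bc1 complex, kept 6 of its 9 members above untreated at 50 to 60 min, with 1 below, beside the same 41.9% and 36.0% of all genes. QCR9 (YGR183C), its smallest subunit here by coding length (201 bases), had 10.3 to 17.2 CPM untreated, 52.4 and 38.9 CPM at 10 to 20 min, and 179 and 126 CPM at 50 to 60 min. Its log2 change of 3.64 (SE 0.38, adjusted p = 3.33e-08) was the highest of the 35 at that time, and culture 1 lay above culture 2 from 10 min onward. CYT1 (YOR065W) had 131 and 122 CPM at 10 to 20 min and 120.3 and 103 CPM at 50 to 60 min, after 39.1 to 52.6 CPM untreated. Its change was 1.48 and then 1.30 (SE 0.15, adjusted p = 3.77e-08), a plateau with no overlap with the untreated samples. QCR7, QCR6, QCR10 and RIP1 were higher by 0.46 to 0.88 at 50 to 60 min. QCR8 (YJL166W), which had risen to 350.4 and 310 CPM at 10 to 20 min, had 97.9 and 136 CPM at 50 to 60 min, against 184 to 199 CPM untreated, a log2 change of -0.70 (SE 0.14, adjusted p = 6.75e-05). The core subunits COR1 and QCR2 rose at 10 to 20 min by 0.73 and 0.82 and were not called at 50 to 60 min; COR1 was called higher there with culture as a block.

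Among complexes III, IV and V the ATP synthase had the lowest median change at 10 to 20 min, and differences between complexes were not tested. At 50 to 60 min, 6 of its 12 subunits were lower (ATP2, ATP3, ATP5, ATP7, ATP16 and ATP20), 2 were higher (ATP15 and ATP17) and 4 were not called, beside 36.0% of all genes lower and 41.9% higher. On library totals none was lower. ATP7 (YKL016C), a stalk subunit, had 101 and 138 CPM at 50 to 60 min against 206 to 225 CPM untreated, a log2 change of -0.85 (SE 0.16, adjusted p = 3.83e-05). ATP5 (YDR298C), the stalk subunit that corresponds to OSCP, had 81.3 and 103 CPM against 155 to 173 CPM, a change of -0.84 (SE 0.11, adjusted p = 2.31e-07). In both genes culture 1 was the lower sample, and neither culture overlapped the untreated samples. The F1 subunits ATP2 (beta) and ATP3 (gamma) also rose and then fell. ATP2 changed by 0.31 at 10 to 20 min and by -0.51 at 50 to 60 min, and ATP3 by 0.46 and -0.75. ATP1 was highest at 20 to 30 min and was not called at 50 to 60 min. ATP17 had 146 and 188 CPM at 50 to 60 min, against 100.4 to 117 CPM untreated (log2 change 0.67, SE 0.14, adjusted p = 0.000159). ATP15 (epsilon) had 524 and 449 CPM against 298 to 393 CPM, a change of 0.57 (SE 0.23, adjusted p = 0.0317), and this call ended when any of 8 libraries was left out.

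INH1 (YDL181W), a peptide that binds F1 and blocks ATP hydrolysis, had a larger log2 change than each of the 12 ATP synthase subunits at both 10 to 20 and 50 to 60 min; these differences between genes were not tested. It had 35.5 to 64.1 CPM untreated, 201 and 170.4 CPM at 10 to 20 min, and 115 and 98.3 CPM at 50 to 60 min. The log2 change was 1.94 (SE 0.34, adjusted p = 6.74e-05) and then 1.14 (SE 0.35, adjusted p = 0.00647).

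The NADH dehydrogenases moved apart. NDI1 (YML120C), the matrix-facing enzyme, had 61.5 and 60.3 CPM at 10 to 20 min and 49.6 and 43.5 CPM at 50 to 60 min, after 22.0 to 25.0 CPM untreated. Its change at 50 to 60 min was 0.98 (SE 0.16, adjusted p = 6.86e-06). NDE1 (YMR145C), the external enzyme, was the only member that fell at 10 to 20 min. It had 47.1 and 44.2 CPM at that time and 41.4 and 45.9 CPM at 50 to 60 min, after 89.1 to 96.1 CPM untreated, with changes of -1.04 (SE 0.11, adjusted p = 4.72e-08) and -1.10 (SE 0.12, adjusted p = 1.38e-08). NDE2, the other external enzyme and not a member, rose by 4.45 (SE 0.19, adjusted p = 1.98e-15), with 29.2 and 22.2 CPM at 50 to 60 min against 0.936 to 1.31 CPM untreated. The coding sequences of NDE1 and NDE2 were 62.8% identical, with no identical run longer than 11 bases.

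**Figure D3:**
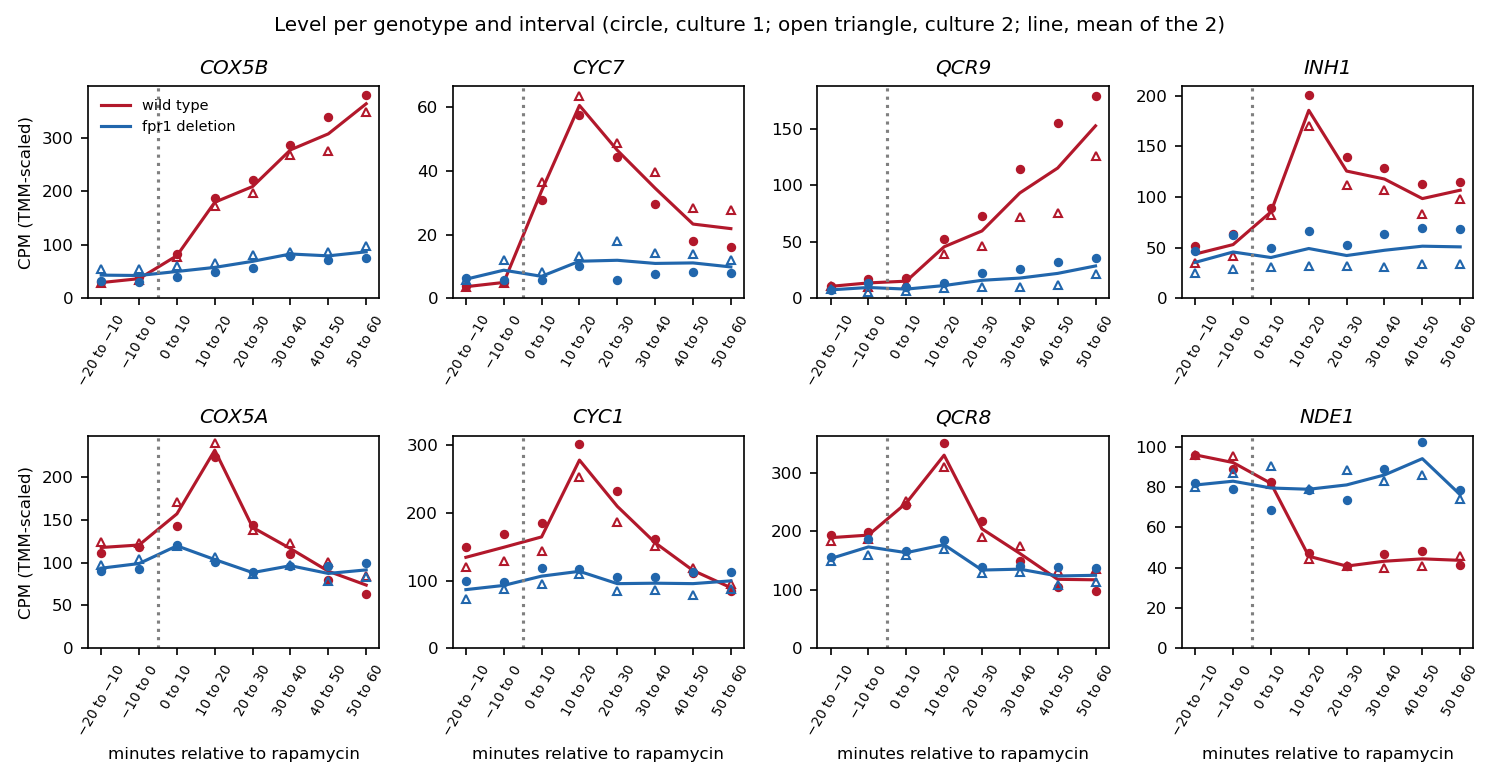
Level in CPM (UMI level per TMM-scaled library size) of 8 genes by interval in min relative to rapamycin (dotted line), for WT (red) and fpr1 deletion cells (blue). Circles are culture 1, open triangles culture 2, and lines the mean of the 2 cultures. COX5B and QCR9 climb to the last interval in WT, COX5A, CYC1 and QCR8 peak at 10 to 20 min and end below their untreated samples (on library totals their changes are above 0), and NDE1 drops and stays low.

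The isoform pairs showed the change in balance without any scaling, because the ratio is taken within a sample. For every COX5A UMI, WT cells of culture 1 had 0.275 and 0.339 COX5B UMIs before the drug, 0.838 at 10 to 20 min and 6.02 at 50 to 60 min. In culture 2 the ratio was 0.231 and 0.276, then 0.719 and then 4.11. The mean log2 ratio over treated intervals exceeded that over untreated intervals by 2.61 (2 cultures; two-sided exact permutation of interval labels within cultures, p = 0.00128, 0.00128 after adjustment over 2 pairs, the smallest value the 784 arrangements allow). The CYC7 to CYC1 ratio jumped in the first interval and then held. It was 0.0257 and 0.0310 in culture 1 and 0.0296 and 0.0369 in culture 2 before the drug, between 0.163 and 0.190 in culture 1 afterwards, and between 0.239 and 0.292 in culture 2. The mean log2 ratio differed by 2.82 (exact permutation p = 0.00128, adjusted 0.00128). In fpr1 cells the COX5B to COX5A ratio was 0.758 in culture 1 and 1.18 in culture 2 at 50 to 60 min, against 0.360 and 0.564 at -20 to -10 min. Their CYC7 to CYC1 ratio was 0.0699 and 0.136 at 50 to 60 min, and between 0.0576 and 0.137 in the 4 untreated samples, above every untreated WT value. The fpr1 ratios were not tested. Successive intervals of a culture are not independent samples, so these p-values describe the ordering of intervals within 2 cultures. The untreated intervals always come first, so this test cannot tell drift with time from the drug.

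The cytochrome c genes differed in the first interval, when only CYC7 was called, and then moved together. CYC7 had 57.3 and 63.5 CPM at 10 to 20 min and 15.99 and 27.7 CPM at 50 to 60 min, with log2 changes of 3.81 (SE 0.24, adjusted p = 7.66e-12) and 2.43 (SE 0.25, adjusted p = 9.65e-09). CYC1 (YJR048W) had 303 and 254 CPM at 10 to 20 min and 84.5 and 94.9 CPM at 50 to 60 min, after 120 to 169.6 CPM untreated, with changes of 0.97 (SE 0.16) and -0.66 (SE 0.17, adjusted p = 0.00166). Both declined after 20 min. The coding sequences of CYC1 and CYC7 were 75.6% identical with a longest shared run of 35 bases, and those of COX5A and COX5B 67.6% identical with a longest run of 12 bases, so reads in the coding parts can be told apart over most of their length. Untranslated parts were not compared.

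In single cells the gain of COX5B was spread over many cells. Cells with at least 1000 UMIs were thinned to 1000, and the others were left out. At 50 to 60 min this left out 392 of 1693 WT cells of culture 1 and 704 of 14688 of culture 2. At -20 to -10 min it left out 770 of 12223 and 304 of 13693. Of the WT cells kept at 50 to 60 min, 37.7% of 1301 in culture 1 and 41.1% of 13984 in culture 2 held a COX5B UMI. At -20 to -10 min 2.68% and 2.46% did. In fpr1 cells the shares were 5.97% and 11.1% at 50 to 60 min, against 2.70% and 5.72%. Without thinning, over all WT cells, the shares at 50 to 60 min were 58.1% and 74.1%. As a measure of background, FPR1 UMIs were found in 3.75% and 6.68% of the fpr1 cells at 50 to 60 min and in 3.33% and 1.06% at -20 to -10 min after the same thinning, against 70.5% and 83.3%, and 61.4% and 65.6%, of WT cells. Before thinning the median cell at 50 to 60 min held 6234 and 3246 UMIs in fpr1 and 1729 and 2856 UMIs in WT. No change in the COX5B share of fpr1 cells is read from these values.

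The fpr1 deletion cells showed little of this. No member was called at 0 to 10, 10 to 20 or 20 to 30 min (edgeR; unadjusted p under 0.05 for 1, 0 and 6 members, and DESeq2 also called 0 in each), where 0.0%, 0.0% and 1.12% of all genes were called higher and 0.0%, 0.0% and 1.93% lower. At 30 to 40 min COX5B was called higher (0.89, SE 0.21, adjusted p = 0.0178), beside 1.93% of all genes higher and 2.67% lower. At 40 to 50 min COX5B and CYT1 were higher and COX12 lower, beside 5.17% and 6.67%; with culture as a block 8 members were called there. At 50 to 60 min, 3 members were higher (QCR9, COX5B and CYT1) and 1, ATP5, lower, beside 5.06% and 6.42% of all genes. COX5B had 75.7 and 98.5 CPM at 50 to 60 min against 31.0 to 54.9 CPM untreated, a log2 change of 0.96 (SE 0.21, adjusted p = 0.00458). QCR9 had 35.5 and 22.0 CPM against 6.04 to 13.4 CPM (1.79, SE 0.55, adjusted p = 0.0402), CYT1 66.7 and 61.9 CPM against 36.6 to 47.3 CPM (0.69, SE 0.17, adjusted p = 0.0112), and ATP5 123 and 111 CPM against 139 to 158 CPM (-0.37, SE 0.11, adjusted p = 0.0291). With the WT share of the RNA subtracted from the fpr1 sums by their FPR1 level, only CYT1 kept its call, and COX5B changed by 0.71 (adjusted p = 0.102) and QCR9 by 1.43 (adjusted p = 0.107). Without the culture 2 library of 50 to 60 min none of the 4 was called, and QCR9 and CYT1 lost their calls without culture 1.

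Tested directly as the difference between the changes in WT and in fpr1 cells, CYC7 (3.06, SE 0.59) and COX5B (1.09, SE 0.30) had already risen more in WT at 0 to 10 min, beside 2.2% of all genes relatively higher and 2.49% lower. At 10 to 20 min, 21 members were relatively higher in WT and NDE1 was relatively lower, beside 16.6% and 20.4% of all genes. The largest called differences on the log2 scale were in CYC7 (3.15), COX5B (2.05), INH1 (1.61), CYT1 (1.34) and QCR10 (1.33). With the culture 2 library of that interval left out 13 members were called. The counts were 10 relatively higher and 1 lower at 20 to 30 min (19.7% and 24.6% of all genes; 17 members called with culture as a block), 11 and 2 at 30 to 40 min (24.8% and 27.5%), and 11 and 4 at 40 to 50 min (26.4% and 29.2%). At 50 to 60 min, 10 members were relatively higher in WT and 7 lower, beside 27.5% and 30.8% of all genes, and on library totals 19 were higher and none lower. The differences at 50 to 60 min included 2.50 for COX5B (SE 0.29, adjusted p = 1.49e-07), 1.13 for COX9 (SE 0.17), 1.11 for COX6 (SE 0.19) and -0.995 for NDE1 (SE 0.16, adjusted p = 1.99e-05). QCR8, lower in WT, was not called in this comparison (-0.32, SE 0.19, adjusted p = 0.159). Leaving out the culture 1 library of 50 to 60 min ended the calls of ATP3, ATP5, ATP7, COX5A, CYC1, CYT1, NDI1 and QCR9.

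**Figure D4:**
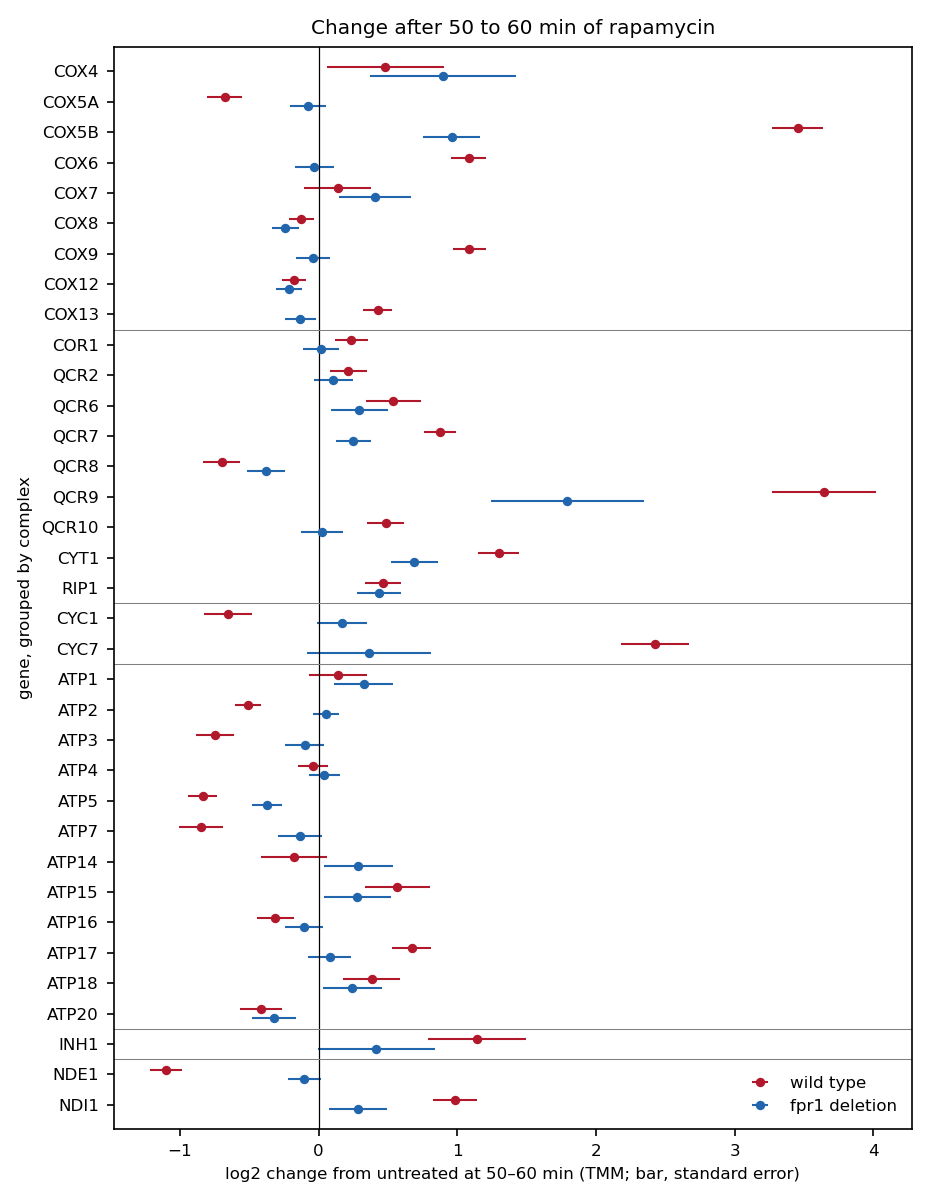
Log2 change from untreated at 50 to 60 min of rapamycin for the 35 genes, WT (red, upper point of each row) and fpr1 deletion cells (blue, lower point), with bars of 1 standard error. COX5B, QCR9 and CYC7 stand furthest right in WT, and most fpr1 points lie within 0.5 of 0.

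Before the drug CYC1 alone was called between the genotypes, higher in WT, with 120 to 169.6 CPM in WT cells and 73.6 to 100.04 CPM in fpr1 cells (log2 difference 0.67, SE 0.15, adjusted p = 0.0383), where 0.469% of all genes were called higher and 0.0721% lower. Of the 35 members, 33 had a log2 difference above 0, with a median of 0.24 beside 0.03 over all genes, and 17 had an unadjusted p under 0.05. CYC7 had a difference of -0.80 (SE 0.37, adjusted p = 0.57). DESeq2 called 7 members. Without any of 8 single libraries the call of CYC1 ended, and with culture as a block 5 members were called. No member was called between the 2 untreated intervals in WT or in fpr1 cells (edgeR; unadjusted p under 0.05 for 0 and 1 members, DESeq2 also 0), where 0.0% of all genes were called. The members nevertheless lay mostly above 0: 33 of 35 in WT and 30 of 35 in fpr1 cells, with medians of 0.097 and 0.115 beside -0.005 over all genes in each. Their summed level in WT was 5520 and 5139 CPM at -10 to 0 min against 5096 and 4923 CPM at -20 to -10 min, and in fpr1 cells 4717 and 4396 CPM against 4314 and 4087 CPM.

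Genes that work with these complexes were counted from lists chosen with earlier results known. At 50 to 60 min in WT, 41.9% of all genes were called higher and 36.0% lower. Of 11 genes of succinate dehydrogenase (complex II) and other dehydrogenases, 10 were higher in WT at 50 to 60 min and none lower. SDH1 to SDH4, its subunits, changed by 1.65, 1.14, 0.49 and 1.64 on the log2 scale. Of 9 further ATP synthase subunits and regulators, 3 were higher and 1 lower. The largest rise was in STF1, a relative of INH1 (3.34, SE 0.24), and the fall was in ATP23 (-0.77, SE 0.22), which was at 0.07 on library totals. The 33 genes listed under assembly of complexes III and IV, not all of them assembly factors, split into 12 higher and 12 lower. They ran from COX26 (3.08) to CMC1 (-1.53). Of 12 tested translational activators of mitochondrial mRNAs, 7 were higher and none lower, led by ATP22 (1.98).

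Most of the 8 transcripts of the mitochondrial genome encode partner subunits. Of the 8, 5 were higher in WT at 50 to 60 min, beside 41.9% of all genes. ATP8 led with 1.78 (SE 0.60, adjusted p = 0.0114). None was higher at 10 to 20 min, when most nuclear members were highest and 32.2% of all genes were called higher. The median log2 change of the 8 at 50 to 60 min was 1.07 in WT and 0.60 in fpr1 cells, where none was called. For the WT minus fpr1 difference at that time none was called either, with a median of 0.12. Among 6 carriers and porins, the porin POR1 rose by 1.98 and AAC3, the anaerobic ADP/ATP carrier, fell by 1.43, with 2 higher and 2 lower in all. PET9, the major ADP/ATP carrier, rose by 0.43 at 10 to 20 min and had a change of -0.23 (SE 0.14, adjusted p = 0.128) at 50 to 60 min, 0.61 on library totals.

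The regulators were mixed. HAP4, the limiting subunit of the CCAAT activator, had 111 and 96.8 CPM at 0 to 10 min against 47.5 to 60.1 CPM untreated (log2 change 0.95, SE 0.19, adjusted p = 0.000786). By 50 to 60 min it had 35.2 and 28.4 CPM (-0.78, SE 0.21, adjusted p = 0.00171), 0.03 on library totals. HAP5 rose by 1.06 and HAP3 fell by 1.08. The HAP1 transcript rose by 1.06 (SE 0.15), and whether these strains make a working Hap1 activator was not tested. ROX1 had a change of 0.04 (SE 0.13, adjusted p = 0.81). In the list of 10 factors 4 were higher and 2 lower. Of 8 heme synthesis genes, 5 were lower and 1 higher, from HEM14 (0.76) to HEM12 (-2.37). Among 12 tested genes of a low-oxygen list, which includes the members CYC7 and COX5B, 4 were higher and 5 lower: HMX1, heme oxygenase, rose by 3.87, and HEM13 and ANB1 fell by 1.91 and 1.77. These counts stand beside 41.9% higher and 36.0% lower over all genes.

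The bulk cultures were far shallower, 3800 to 111293 counts per library, and 11 members were among the 910 genes tested (COX5A, COX9, COR1, QCR2, QCR6, CYT1, RIP1, ATP1, ATP2, ATP5 and ATP16). Members took up 1.70%, 1.22% and 1.42% of all counts at 120 min in the 3 cultures, against 0.686%, 0.512% and 0.579% at 0 min. At 60 min 2 of the 11 were higher (ATP5 and CYT1) and none lower, with 18.2% of all tested genes called higher and 24.3% lower. At 120 min 5 were higher and none lower, with 23.5% of tested genes called higher and 25.7% lower: ATP5, QCR2, COR1, CYT1 and ATP1. CYT1 averaged 975 ± 252 CPM at 0 min, 1970 ± 391 CPM at 60 min and 3370 ± 343 CPM at 120 min (SD, n = 3), with log2 changes of 1.09 (SE 0.43, adjusted p = 0.0331) and 1.85 (SE 0.42, adjusted p = 0.000166). QCR2 had 2066, 1683 and 1528 CPM at 120 min against 115, 151 and 581 CPM at 0 min, 2.63 on the log2 scale (SE 0.46, adjusted p = 1.91e-06). ATP1 had 2093, 2508 and 1869 CPM at 120 min against 460.1, 845 and 640 CPM at 0 min and changed by 1.63 (SE 0.42, adjusted p = 0.00083), and COR1 by 2.18 (SE 0.55, adjusted p = 0.000688).

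Of the 11 members tested in bulk, ATP5 alone was called in opposite directions at 60 min in bulk and at 50 to 60 min in the single-cell sums. In bulk it had 1523, 821 and 1357 CPM at 60 min against 690.2, 302 and 174 CPM at 0 min, a log2 change of 1.92 (SE 0.47, adjusted p = 0.000627), and it was called higher at every time from 10 min on. In the single-cell sums it changed by 0.29 at 10 to 20 min and by -0.84 at 50 to 60 min. COX5A (0.68, SE 0.83) and ATP2 (0.63, SE 0.55) were not called in bulk at 60 min and were lower at 50 to 60 min in the single-cell sums. QCR6 was not called in bulk at 15 min (-0.83, SE 0.40, adjusted p = 0.155) and was higher by 1.08 at 10 to 20 min in the single-cell sums. The bulk libraries came from other cultures and another protocol, and the difference was not tested across the tables. Bulk levels at 0 min, the baseline of these changes, rest on few counts. In bulk samples fewer cells and less RNA per cell cannot be told apart. COX9 was the one member called lower at any bulk time, at 10 min (-1.71, SE 0.56, adjusted p = 0.0441), where 5.16% of all tested genes were higher and 3.96% lower.

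**Figure D5:**
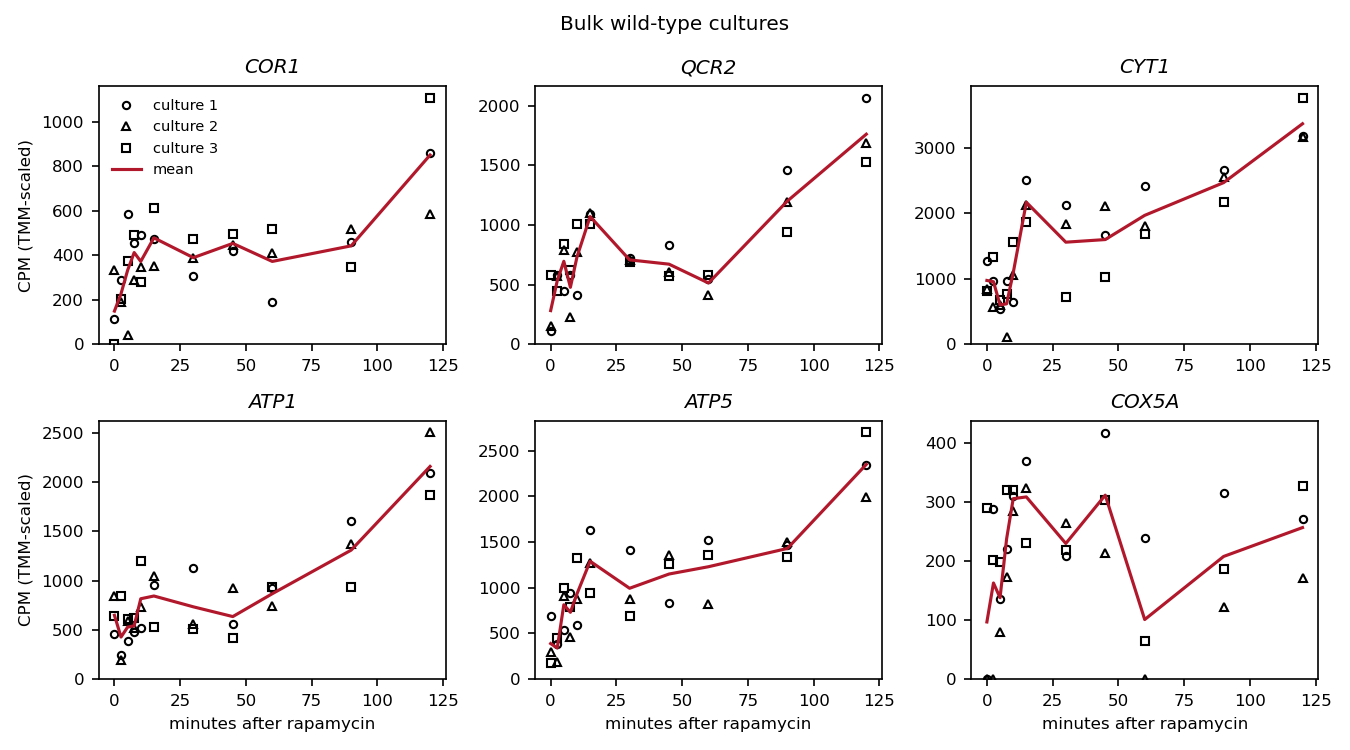
Level in CPM (count level per TMM-scaled library size) of 6 genes in the bulk WT cultures, by min after rapamycin. Symbols are the 3 cultures and the line is their mean. CYT1, QCR2, ATP1, COR1 and ATP5 are highest at 120 min, and COX5A shows no call at any time.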

How the data were processed

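Single-cell UMI counts per cell, deposited by the authors with each cell's genotype, time interval and culture, were summed per genotype and library into 32 samples. The bulk table holds counts per gene as deposited by the authors, and no label says if a count is a UMI or a read. Per the submitters' processing notes, bcl2fastq, kallisto 0.46.1, bustools 0.39.3 and the sacCer3 build were used with no role stated. The cells deposited all had at least 500 UMIs. No doublet caller was run, and no source used here says if doublets had been removed.

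Genes were filtered with edgeR 4.0.16 (filterByExpr), scaled by TMM and fitted with its robust quasi-likelihood model with 1 coefficient per genotype and interval (R 4.3.3). P-values were adjusted by Benjamini-Hochberg over all 5549 single-cell or 910 bulk genes, and called under 0.05. The biological coefficient of variation was 14.1% in the single-cell sums and 29.7% in bulk. Standard errors are the log2 change divided by the square root of F. Isoform ratios used raw UMIs with a pseudocount of 0.5. Intervals cover 2 cultures, so p-values measure the spread between these. The WT and fpr1 sums of a library were fitted as independent samples, and this pairing was not modelled. Intervals of a culture came from the same flask, so culture pairs them by design; deviations of samples of the same culture correlated between -0.03 and 0.84, median 0.26. All members are named or counted; in full are the isoform pairs, INH1, NDE1, NDI1 and, per complex, the 2 largest called rises and falls at 50 to 60 min in WT. Other lists name HAP4, HAP1, ROX1, NDE2, SDH1 to SDH4, PET9, HEM13, ANB1 and each list's largest called rise and fall. Alternatives were RLE scaling, library totals, no filter, DESeq2 1.42.0, culture as a block, the last untreated interval alone, cells without the top 5% of UMIs, removal of WT RNA from fpr1 sums, and leaving out each library. The members and lists were chosen with earlier results of these data known. The genotype PCR libraries were not analysed here.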

Additional observations from a re-analysis of the deposited data

Results flagged for a closer look

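The change in WT differed from the change in fpr1 deletion cells at 50 to 60 min for 17 members, by edgeR's quasi-likelihood test of that difference, 10 relatively higher and 7 lower, beside 27.5% and 30.8% of all genes. Relatively higher in WT were COX5B (log2 difference 2.50), CYC7 (2.06), QCR9 (1.85), COX9 (1.13), COX6 (1.11), NDI1 (0.70), QCR7 (0.63), CYT1 (0.61), ATP17 (0.59) and COX13 (0.56). Relatively lower were NDE1 (-0.995), CYC1 (-0.82), ATP7 (-0.71), ATP3 (-0.65), COX5A (-0.60), ATP2 (-0.56) and ATP5 (-0.46). The calls that held whichever library was left out were those of COX5B, COX6, COX9, ATP2 and NDE1.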

How the results depend on the processing

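With culture as a replicate block the members called numbered 35 at 10 to 20 min and 28 at 50 to 60 min in WT, and 1, 2 and 8 at 20 to 30, 30 to 40 and 40 to 50 min in fpr1 cells. The block gave 5 calls between untreated genotypes, 4 and 17 for the WT minus fpr1 difference at 0 to 10 and 20 to 30 min, and 2 in bulk at 45 min; it moved no other count of members past 1.5 times.

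On library totals, log2 changes of the opposite sign at 50 to 60 min in WT were 0.16 for COX5A, 0.14 for QCR8, 0.17 for CYC1, 0.32 for ATP2, 0.0934 for ATP3, 0.53 for ATP16, 0.43 for ATP20, 0.0682 for ATP23, 0.0347 for HAP4 and 0.61 for PET9. The WT minus fpr1 differences there were 0.0676 for COX5A, 0.0834 for ATP2, 0.0293 for ATP3 and 0.20 for ATP5. ROX1, not called, had -0.0112 with RLE scaling, -0.0121 with DESeq2, -0.083 with no filter, -0.14 without the top 5% of cells, and -0.0535 to 0.103 with single libraries left out.

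Counts of called members moved as follows. Library totals gave 1 in fpr1 at 20 to 30 min, 0 between untreated genotypes, 1, 28, 27 and 24 for the WT minus fpr1 difference at 0 to 10, 20 to 30, 30 to 40 and 40 to 50 min, 14 for late against early WT, 35 in WT at 20 to 30 min, and 4 in bulk at 45 min. The last untreated interval alone gave 0, 0 and 2 in fpr1 at 30 to 40, 40 to 50 and 50 to 60 min, 0 between untreated genotypes, 1 for the difference at 0 to 10 min, and 6 in WT at 0 to 10 min. Removing WT RNA gave 0, 0 and 1 in fpr1 at those 3 intervals and 1 for the difference at 0 to 10 min. RLE scaling gave 5 in fpr1 at 40 to 50 min and 5 and 8 in bulk at 45 and 90 min, and DESeq2 gave 6, 5 and 8 there and 7 between untreated genotypes. Without the top 5% of cells there were 5 in fpr1 at 40 to 50 min, 0 between untreated genotypes and 1 for the difference at 0 to 10 min. No filter gave 1 in bulk at 10 and at 60 min. The cause of these moves was not tested.

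With single libraries left out, the counts ranged over 0 to 1, 1 to 6 and 0 to 6 in fpr1 at 30 to 40, 40 to 50 and 50 to 60 min, 0 to 1 between untreated genotypes, and 6 to 11 in WT at 0 to 10 min. For the WT minus fpr1 difference they were 0 to 2, 13 to 22, 7 to 11, 7 to 13 and 10 to 17 at 0 to 10, 10 to 20, 20 to 30, 30 to 40 and 50 to 60 min. In bulk they were 0 to 1 at 5 and 10 min, 1 to 3 at 15, 30 and 45 min, 1 to 4 at 60 min, 4 to 5 at 90 min and 5 to 8 at 120 min. Of 137 results for single genes, 69 kept direction and call under every alternative run and 15 changed sign under at least 1. Depth limits the fpr1 sums and, in bulk, leaves 11 of 35 members testable.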

Other observations

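Of the 72 strain codes among WT cells, 7 had 16.9 to 34.6 CPM of mitochondrial genome transcripts before the drug, against 172 to 238 CPM in the other 65. The codes were set apart by this value alone, and differences between them were not tested. At 40 to 60 min in culture 2 the 35 genes made up 8252 to 9023 CPM in the 7 codes. In the other 65 they made up 9586 to 10230 CPM. In culture 1 the ranges overlapped, at 5589 to 8775 and 6929 to 8766 CPM, with 2 to 13 cells per low code. Before the drug the ranges overlapped in both cultures. CPM here is on the total UMIs of each code. All 72 codes are part of the WT sums.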
